A study of Mus musculus with 6 samples.

Results

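RNA levels of the chloride cotransporter genes Slc12a2 and Slc12a5 were examined in cells sorted as neurons from the embryonic mouse cortex. Slc12a2 encodes NKCC1, which carries sodium, potassium and chloride into the cell, and Slc12a5 encodes KCC2, which carries potassium and chloride out. Both genes were found by symbol, as 2 of 20367 genes in the joined data, and both passed the filter for testing. Immature neurons are known for high NKCC1 and low KCC2, so that their chloride is high and GABA depolarises them. KCC2 comes up as neurons mature, and GABA then becomes inhibitory.

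There were 6 RNA sequencing libraries, 1 per population and day, from C57BL/6J cortex on embryonic days 13.5 (E13.5), 15.5 (E15.5) and 16.5 (E16.5). All embryos came from heterozygous Tbr2(Eomes)-GFP mice crossed to homozygous DCX-mRFP mice. The IPN libraries hold cells sorted for both colors, labelled as neurons derived from intermediate progenitor cells, whose transcription factor is Eomes. The non-IPN libraries hold cells sorted for red alone. At E15.5, 1000000 cells per population were collected without amplification, while at E13.5 and E16.5 there were 10000 cells per population, amplified with the Ovation RNA-Seq System V2. The labels do not say how many embryos a library pooled or whether any library repeats another. The days thus served as the only replicates of the population difference. Its limma p-values set it against its spread across days, moderated by the spread of other genes. The permutation p-values use no other genes. Levels are in CPM, meaning a deposited value divided by its column's sum and multiplied by 1000000. Where 3 values of a population follow each other, they run from the youngest day to the oldest.

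Markers of GABA interneurons and projection neurons separated the populations, and RNA of other cell types was found in both. All 10 markers of GABA interneurons were lower in IPN and 9 of 10 markers of projection neurons were higher (limma adjusted p under 0.05). Over all genes, 2.41% were called lower and 0.982% higher. Eomes, the gene behind the green reporter, was at 437.1, 101.7 and 98.4 CPM in IPN and 214.2, 72.5 and 72.0 CPM in non-IPN. Its difference did not pass (0.79 ± 0.22, limma adjusted p = 0.101). All 10 microglia and macrophage markers were lower in IPN, where they summed to 1.78 to 6.08 CPM, against 468.8 to 928.4 CPM in non-IPN. The 10 radial glia and progenitor markers summed to 427.2 to 1532 CPM in IPN and 786.5 to 5293 CPM in non-IPN, highest in non-IPN at E13.5. Hemoglobin genes took 4.92% of that library and at most 0.0275% of any other. Column totals ran from 12583033 to 32522834 of an already scaled value, so the depth cannot be known here and counting error has no interval. In such bulk samples, fewer cells of a type and less RNA per cell cannot be told apart.

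The exporter Slc12a5 was lower in IPN than in non-IPN. In IPN it was at 5.11, 7.19 and 5.81 CPM from the youngest day to the oldest, and in non-IPN at 14.2, 57.5 and 40.8 CPM. The IPN libraries stayed within a narrow range, all below the lowest non-IPN library, and the non-IPN libraries were spread widely. Means were 6.04 ± 1.06 CPM in IPN and 37.5 ± 21.9 CPM in non-IPN (SD, n = 3 days each). Of all 19561 genes tested, 6.55% had every IPN library below every non-IPN library, and 1.43% the reverse. The 10 GABA interneuron markers moved with it, at sums of 30.1, 75.1 and 68.5 CPM in IPN and 1536, 5332 and 3203 CPM in non-IPN, and their part in the Slc12a5 difference was not tested.

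Within each day, Slc12a5 in IPN was at 36.1%, then 12.5%, then 14.2% of its non-IPN level. The fitted log2 difference was -2.28 ± 0.44 (IPN minus non-IPN, SE), which limma called across all genes (adjusted p = 0.0164). Its 95% interval ran from -3.25 to -1.31, and the difference was negative in 3 of 3 pairs. Across all genes, 3.39% were called and 2.41% were called lower in IPN. The call was lost without the E15.5 pair (-1.95 ± 0.60, limma adjusted p = 0.35) and without the E16.5 pair (-2.13 ± 0.57, adjusted p = 0.0938), and was kept when the E13.5 pair was left out (-2.76 ± 0.35, adjusted p = 0.0119). The direction but not the call was also kept with column-total scaling (-2.26 ± 0.40, limma adjusted p = 0.0847), with a pseudocount of 10 (-2.19 ± 0.42, adjusted p = 0.062) and without pairing by day (-2.28 ± 1.14, adjusted p = 1), so 5 of 9 alternatives lost it.

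The importer Slc12a2 was lower in IPN in each pair, but the difference did not reach a call. Its IPN levels were 86.9, 61.6 and 82.8 CPM, and its non-IPN levels were 152.7, 85.9 and 123.6 CPM. Each IPN library was below the non-IPN library of its day, a pattern shared by 20.8% of genes, but the groups overlapped, since IPN at E13.5 was just above non-IPN at E15.5. Means were 77.1 ± 13.6 CPM in IPN and 120.7 ± 33.5 CPM in non-IPN (SD, n = 3 days each).

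The fitted difference of Slc12a2 was -0.48 ± 0.22 on the log2 scale and missed the threshold (limma adjusted p = 0.368, unadjusted p = 0.0501). Its 95% interval of -0.97 to 0.00 takes in both no difference and a difference larger than that of the E13.5 pair, which was -0.67 on the same scale. In non-IPN at E13.5, where Slc12a2 was highest, the progenitor markers were also highest. The part of progenitors in that value was not tested. Choroid plexus cells and oligodendrocyte precursors are also known for Slc12a2. The 7 choroid plexus markers summed to 2.53 to 13.1 CPM in IPN and 2.50 to 12.1 CPM in non-IPN. The 5 markers of oligodendrocyte precursors summed to 0.96 to 1.45 CPM in IPN and 0.72 to 4.21 CPM in non-IPN. The part of either cell type in the Slc12a2 levels was not tested. Of the choroid plexus markers, Ttr was at 5.74 CPM in non-IPN at E15.5, of a sum of 10.1 CPM there, and at 0.031 CPM in IPN that day. It was listed at 0 in IPN at E13.5 and E16.5 and in non-IPN at E16.5. Aqp1, Otx2 and Clic6 were at 0 in the same 3 libraries, Clic6 also in non-IPN at E13.5. Most of the sum in the highest libraries was Enpp2, at 12.8 CPM in IPN at E13.5 and 11.8 CPM in non-IPN at E16.5.

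**Figure D1:**
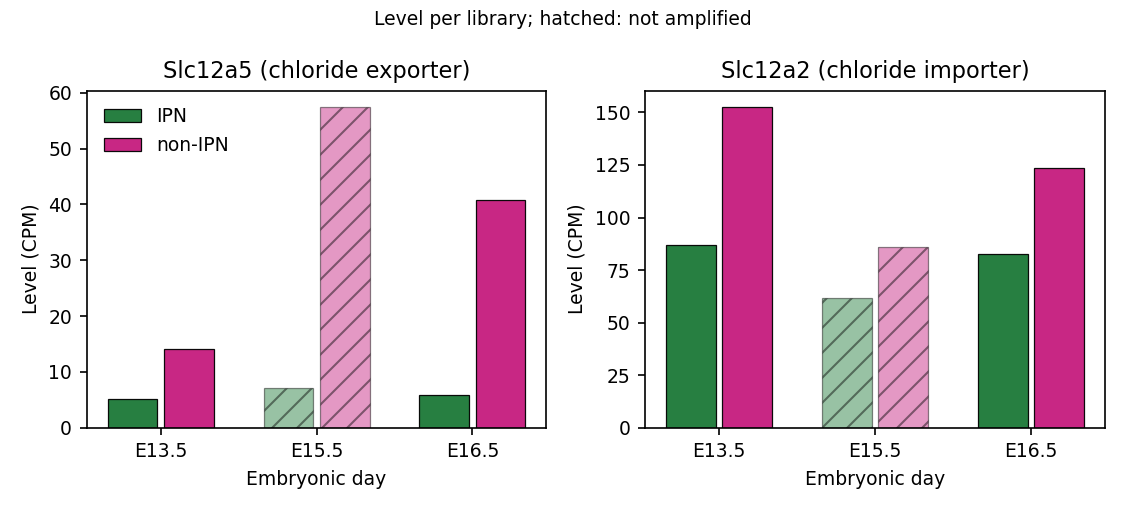
Level in CPM of Slc12a5 (left panel) and Slc12a2 (right panel) by embryonic day, 1 bar per library, with hatched bars for the E15.5 pair that was not amplified. Slc12a5 lay between 5.11 and 7.19 CPM in IPN and between 14.2 and 57.5 CPM in non-IPN, and the Slc12a2 bar of IPN is below that of non-IPN on each day.

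The ratio of exporter to importer was lower in IPN at each day. Per kb of the longest coding transcript (6028 bp for Slc12a5 and 6520 bp for Slc12a2, GENCODE M21), Slc12a5 in IPN stood at 6.36%, 12.6% and 7.59% of Slc12a2, and in non-IPN at 10.03%, 72.5% and 35.8%. Slc12a2 thus exceeded Slc12a5 in all 6 libraries, by the least in non-IPN at E15.5. IPN at E15.5 was above non-IPN at E13.5, so the groups overlapped across days. Without the length correction the ratios were 5.88%, 11.7% and 7.02% in IPN and 9.27%, 67.0% and 33.1% in non-IPN.

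The ratio in IPN was 0.634, 0.174 and 0.212 times that in non-IPN. On the log2 scale the mean paired difference was -1.79 ± 1.0 (SD, n = 3 pairs), negative in 3 of 3 pairs. The exact permutation test within days gave p = 0.25 (two-sided), which is the smallest p that 3 pairs allow, so this design could not reach 0.05. A ratio within 1 library does not depend on how libraries were scaled, apart from the pseudocount of 1 added before logs.

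**Figure D2:**
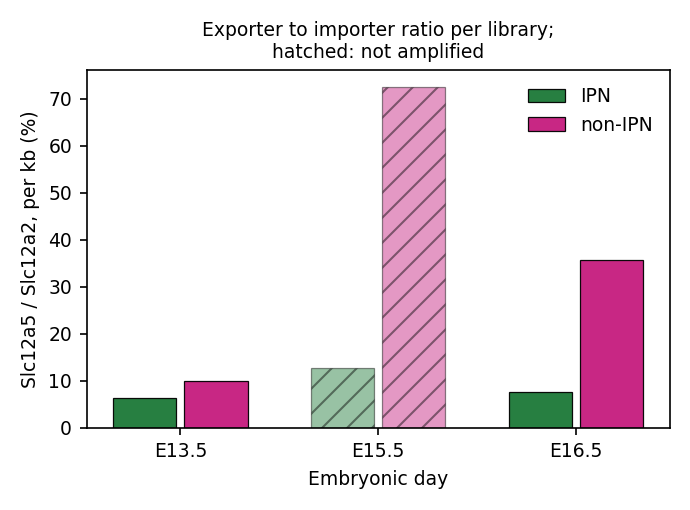
Slc12a5 as a percent of Slc12a2, both per kb of transcript, by embryonic day, 1 bar per library, with hatched bars for the E15.5 pair that was not amplified. IPN stayed between 6.36% and 12.6%, and non-IPN lay between 10.03% and 72.5%.

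Age was compared between the amplified days only, since E15.5 differed in cell number and amplification, and these cannot be told apart from age. Each day held 1 library per population, so the 2 populations were the only replicates of an age, here and in the age counts below. Other differences between the collections of E13.5 and E16.5 cannot be told apart from age either. In IPN, Slc12a5 was at 5.81 CPM at E16.5, against 5.11 CPM at E13.5, a ratio of 1.14. In non-IPN it was at 40.8 CPM at E16.5, against 14.2 CPM at E13.5, a ratio of 2.885. The fitted E16.5 minus E13.5 difference over both populations was 0.74 ± 0.53 for Slc12a5 and -0.30 ± 0.27 for Slc12a2, and neither passed (limma adjusted p = 0.473 and 0.569). At this threshold 6.02% of all genes were called with age, 3.76% higher and 2.26% lower at E16.5. The fitted Slc12a5 value lay between the unlike changes of the 2 populations, and dropping either E13.5 library moved it. It fell to 0.015 ± 0.331 when non-IPN at E13.5 was dropped, and rose to 1.46 ± 0.25 when IPN at E13.5 was dropped.

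Whether the population difference changed with age was tested with a population by day term, fitted over all 3 days. It includes the E15.5 pair, so cell number and amplification cannot be told apart from day in this term either. For Slc12a5 the term was -0.48 ± 0.26 per day, and for Slc12a2 it was 0.11 ± 0.16 per day. Neither passed (limma adjusted p = 0.372 and 0.769; unadjusted p = 0.0861 and 0.511), while 1.3% of all genes did. The 95% interval for Slc12a5, -1.03 to 0.08 per day, takes in no change as well as a difference that grew by a log2 unit per day. The wider gap of Slc12a5 at E15.5 and E16.5 than at E13.5 is thus a description of these libraries. The exporter to importer ratio in non-IPN at E16.5 was 3.57 times that at E13.5, and in IPN 1.19 times.

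**Figure D3:**
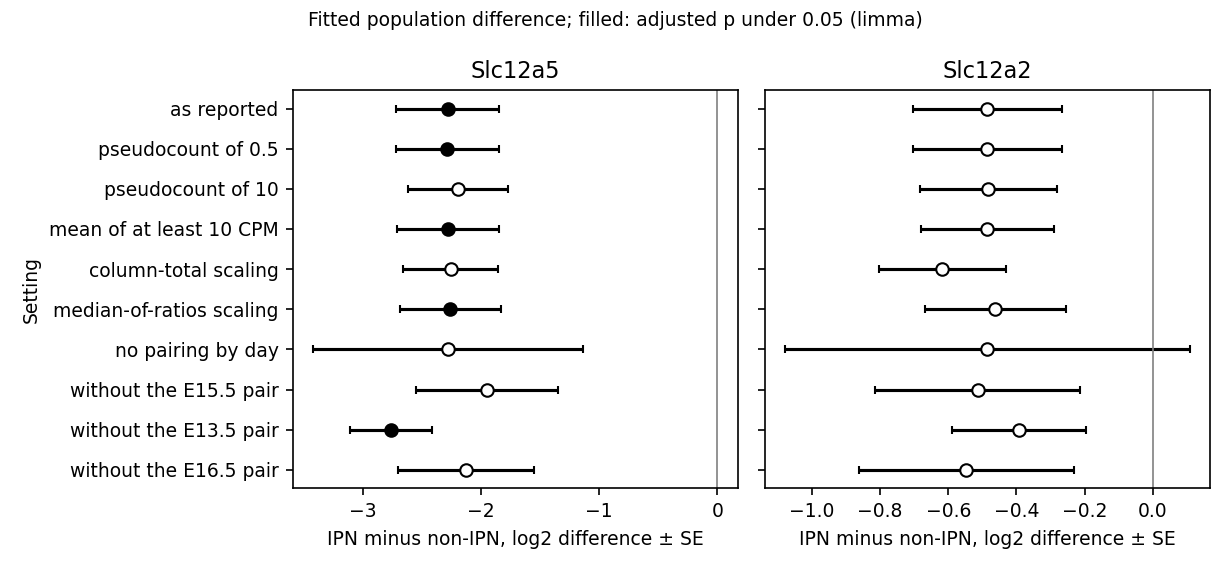
Fitted log2 difference (IPN minus non-IPN, points, with SE as bars) of Slc12a5 (left panel) and Slc12a2 (right panel) under each setting, with filled points where the limma adjusted p was under 0.05. Slc12a5 ran from -2.76 to -1.95 and Slc12a2 from -0.62 to -0.39, and each stayed below 0 in all 10 settings shown.

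Slc12a5 has a pair of annotated start sites, the upstream one known for the KCC2a isoform and the downstream one for KCC2b, the main form of the mature brain. The deposited files give 1 value per gene, so the levels above cannot be assigned to either. The start sites are shown because factors reported to act there were measured in the same libraries. The sequences are from RefSeq, build GRCm38.p6, plus strand of chromosome 2, each with 250 bases before the start site and 50 after it, and capitals mark the E-box CACGTG, the letters bound by the factors Usf1 and Usf2. These coordinates belong to that build and not to mm9, which the submitters' processing notes name.
Slc12a5 upstream start, chr2:164960596-164960895: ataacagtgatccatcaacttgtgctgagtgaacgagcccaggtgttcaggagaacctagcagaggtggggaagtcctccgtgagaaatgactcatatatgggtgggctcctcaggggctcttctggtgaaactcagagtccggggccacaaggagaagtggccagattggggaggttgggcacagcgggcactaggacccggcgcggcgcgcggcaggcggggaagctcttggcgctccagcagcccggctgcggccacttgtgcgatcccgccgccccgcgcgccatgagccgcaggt
Slc12a5 downstream start, chr2:164967738-164968037: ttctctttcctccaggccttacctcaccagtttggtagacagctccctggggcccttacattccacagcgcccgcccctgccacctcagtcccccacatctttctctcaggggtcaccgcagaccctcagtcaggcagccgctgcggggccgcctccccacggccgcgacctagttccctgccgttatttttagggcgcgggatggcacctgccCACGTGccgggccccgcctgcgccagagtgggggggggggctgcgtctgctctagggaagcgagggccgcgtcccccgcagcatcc
The downstream window held 1 E-box, beginning 36 bases before the start site, and the upstream window held none. The E-box reads the same on both strands, and 7.15% of 32851 promoter windows of 300 bases held it. The Egr motif GCGNGGGCG, searched on both strands, was in neither window and in 5.55% of all windows.

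Of 9 reported regulators of Slc12a5 transcription, 2 were lower in IPN and 0 higher, with a median log2 difference of -0.17, beside -0.02 over all genes tested, of which 2.41% were called lower and 0.982% higher. The TrkB receptor gene Ntrk2, whose ligand BDNF is known to change KCC2 levels, was at 19.8, 74.0 and 39.5 CPM in IPN, against 118.4, 208.7 and 150.04 CPM in non-IPN. The groups did not overlap, and its difference of -1.86 ± 0.26 passed (limma adjusted p = 0.00296). The ligand gene Bdnf was low, at 0.194, 0.523 and 1.23 CPM in IPN and 1.93, 0.287 and 0.477 CPM in non-IPN. It was not called (-0.17 ± 1.02, limma adjusted p = 0.96). Like Ntrk2, the growth factor Igf1 was lower in IPN (-6.10 ± 0.73, limma adjusted p = 0.00147). Igf1 was at 0.0646 to 0.215 CPM in IPN and 9.30 to 28.1 CPM in non-IPN. Microglia and macrophages are known to express Igf1, and their markers were lower in IPN as given above. Their part in the Igf1 difference was not tested.

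The repressor Rest, known to silence neuronal genes including Slc12a5, was at 0.194, 15.1 and 0.342 CPM in IPN and at 1.07, 30.2 and 9.14 CPM in non-IPN. It was lower in IPN in each pair without passing (-2.41 ± 0.79, limma adjusted p = 0.171). Like Rest, Usf1 was highest in the E15.5 pair, which was not amplified. It was at 134.7 CPM in IPN and 152.4 CPM in non-IPN there, and at 8.80 to 14.5 CPM in the amplified libraries. Usf1 differed by 0.30 ± 0.32 and Usf2 by -0.04 ± 0.24 (limma adjusted p = 0.769 and 0.965). Egr4, an activator of Slc12a5, was listed at 0 in 4 of 6 libraries and at 0.0646 CPM or less in the others.

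Of the 9 Slc12 genes, Slc12a5 was called for population and the other 8 were not, beside 3.39% called of all genes. With age 0 were called, where 6.02% of all genes were. The exporter genes Slc12a7 (KCC4) and Slc12a4 (KCC1) differed by 0.07 ± 0.42 and -1.06 ± 0.74 (limma adjusted p = 0.966 and 0.615). Slc12a7 was at 5.54 to 28.3 CPM in IPN and 6.99 to 18.4 CPM in non-IPN. Slc12a4 was at 0.194 and 0.958 CPM in the amplified IPN libraries and 1.001 and 3.02 CPM in the amplified non-IPN ones, but at 11.5 CPM in IPN and 11.0 CPM in non-IPN at E15.5. Slc12a9, a family member without an established transport role, likewise stood at 30.7 CPM in IPN and 38.7 CPM in non-IPN at E15.5 and at 2.54 CPM or less in the amplified libraries (-0.29 ± 0.55, limma adjusted p = 0.852). Slc12a8 was at 6.27 CPM in IPN at E13.5 and under 1 CPM elsewhere (1.69 ± 0.99, adjusted p = 0.529). The kidney cotransporter genes Slc12a1 (NKCC2) and Slc12a3 (NCC) were under 0.5 CPM in all libraries.

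**Figure D4:**
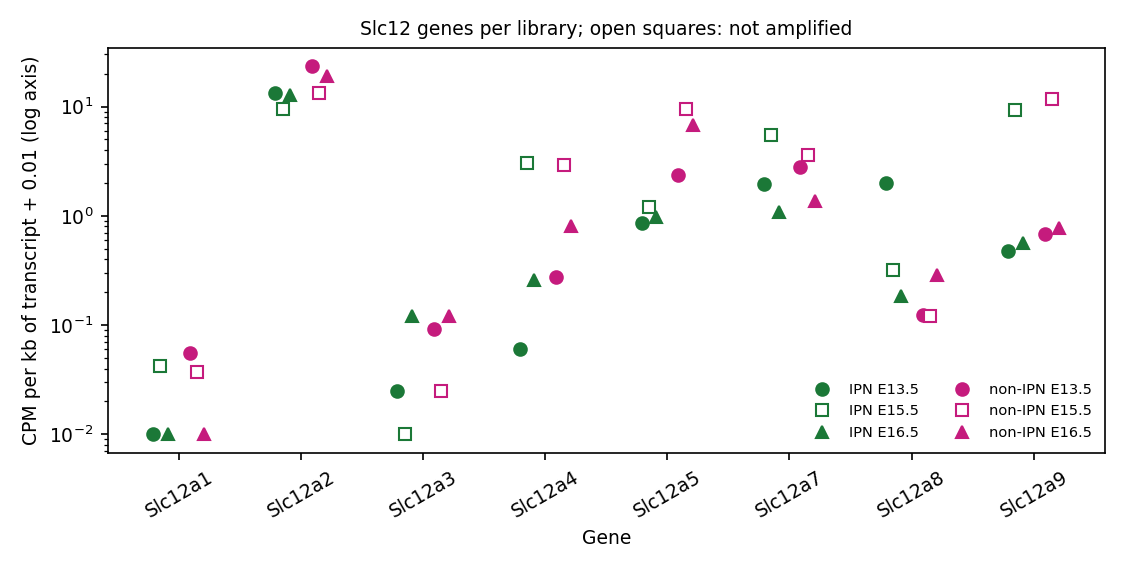
Level of 8 Slc12 genes in CPM per kb of transcript plus 0.01, on a log axis, 1 point per library, with open squares for the E15.5 pair. Slc12a2 was the highest of those shown in every library, and for Slc12a5 the non-IPN points lie above all IPN points.

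No gene of the kinase pathway that switches both transporters was called. WNK kinases act through SPAK (Stk39) and OSR1 (Oxsr1), which are known to activate NKCC1 and inhibit KCC2 by phosphorylation. None of 10 measured genes of this pathway was called for population or age, where 3.39% and 6.02% of all genes were. Their median population difference was 0.28, beside -0.02 over all genes tested. Wnk1 was at 225.3, 175.5 and 247.9 CPM in IPN, against 362.4, 219.0 and 303.3 CPM in non-IPN (-0.29 ± 0.20, limma adjusted p = 0.603). The kinase partner Cab39 (MO25) differed by 0.38 ± 0.24 (limma adjusted p = 0.573). A p that misses the threshold does not show equal levels.

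Of 9 partners and regulators of KCC2 activity, none was called for population, where 3.39% of all genes were, and 3 rose with age, where 3.76% did. They were Neto2, a transmembrane protein that binds KCC2 (1.60 ± 0.25, limma adjusted p = 0.00753), the kinase gene Prkca (1.78 ± 0.34, 0.0159) and Arhgef7, which encodes the KCC2-binding exchange factor beta-PIX (1.35 ± 0.26, 0.0162). Neto2 was at 563.5 CPM in IPN and 438.7 CPM in non-IPN at E16.5, against 146.4 CPM in IPN and 155.4 CPM in non-IPN at E13.5. Both later libraries were thus above both earlier ones.

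Sodium pump subunits, whose gradients drive both cotransporters, were not called for population in any of 6 cases, where 3.39% of all genes were. With age, 1 was called higher and 1 lower, beside 3.76% and 2.26% of all genes. The beta subunit gene Atp1b3 fell with age (-1.27 ± 0.28, limma adjusted p = 0.0255). Among 19 genes of other chloride and bicarbonate transport, 1 was called lower in IPN and 0 higher, beside 2.41% and 0.982% of all genes. The gene called was Car2, a carbonic anhydrase (-7.10 ± 0.90, limma adjusted p = 0.00195). It was at 0 to 0.52 CPM in IPN and 26.2 to 71.4 CPM in non-IPN, and it is also known from red blood cells and glia, whose part in this difference was not tested. Of the same 19 genes, Clcn6 (3.20 ± 0.68, limma adjusted p = 0.024) and the sodium-dependent bicarbonate transporter gene Slc4a8 (1.39 ± 0.34, adjusted p = 0.0402) rose with age, beside 3.76% of all genes.

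Receptor channels that pass chloride and genes of neuronal maturation were counted in the same fits. Of 17 GABA-A and glycine receptor subunits none was called for population, where 3.39% of all genes were. Their median population difference was 0.43, beside -0.02 over all genes tested, but the days differed. Taken pair by pair from the youngest day, the median log2 difference of these subunits was 1.0, -0.078 and 0.272. Their levels summed to 403.58, 430.28 and 955.09 CPM in IPN and 186.78, 638.55 and 1019.87 CPM in non-IPN. The IPN sum was thus the higher one in the E13.5 pair only. With age 4 of these subunits rose, beside 3.76% of all genes, led by Gabrb2 (3.24 ± 0.37, limma adjusted p = 0.00172). Of 16 neuronal maturation genes, Gap43 (1.70 ± 0.26, adjusted p = 0.00476) and Nefm (1.95 ± 0.38, adjusted p = 0.0193), genes of growing axons, were higher in IPN and 0 were lower, beside 0.982% higher and 2.41% lower over all genes. The median of that list was 0.68 between populations. The synaptic gene Snap25 was among 5 that rose with age, again beside 3.76% of all genes (1.85 ± 0.26, limma adjusted p = 0.00477), and was not called for population (0.64 ± 0.21, adjusted p = 0.182).

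The genes most like each cotransporter were taken by Pearson correlation of log2(CPM + 1) over the 6 libraries, among genes with a mean of at least 10 CPM. For Slc12a5 they were Erbb4 (r = 0.997), Fam65b (0.994), Thbs1 (0.992), Elfn1 (0.991) and Cntnap3 (0.990). Erbb4, the neuregulin receptor, was at 2.84, 4.21 and 2.33 CPM in IPN, against 16.1, 325.0 and 170.2 CPM in non-IPN. For Slc12a2 they were Srek1ip1 (0.994), Gyg (0.988), Terf1 (0.986), Tmed5 (0.981) and Akr1b3 (0.979). Slc12a2 and Slc12a5 themselves correlated at 0.376. With 6 points that share day, amplification and population, these values only describe the libraries.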

How the data were processed

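RNA sequencing of 6 sorted libraries was used, grouped by the labels into IPN and non-IPN. Tools named per the submitters' processing notes are edgeR, SAMtools 0.1.18, TopHat 1.2.0 and CASAVA 1.9, and the build is mm9. What each did, and which counter and annotation were used, is not stated there. The deposited values are whole numbers and were treated as a signal scaled by the authors, since their upper quartiles match within the E15.5 pair (1501.5 in IPN and 1501 in non-IPN) and among the amplified libraries (438 to 444) while totals differ, so count tests were not used. Files were joined by symbol, and 6 rows of 3 repeated symbols were dropped. Limma 3.58.1 in R 4.3.3 (trend, robust) was fitted to log2(value + 1) of 19561 genes above 0 in some library, with population and day as factors (2 residual degrees of freedom beside a median prior of 8.3), and with a population by day term (1 beside 14.5). Folds of low genes are understated on this scale. Benjamini-Hochberg adjustment ran over all genes, at a threshold of 0.05. The 2 populations of each day were paired by day, and replicate numbers, given in accession order, pair nothing else. Named genes were both members, all Slc12 genes, the reporter genes Eomes and Dcx, and the 5 most alike. From each other list they were up to 4 called genes per comparison by smallest adjusted p, or the 2 highest in CPM. Wnk3 was not analysed here. Some genes that the rule names are not reported here. Of other uncalled genes, Usf1, Usf2, Rest, Egr4 and Bdnf were named for their reported roles after values were seen. The members and lists were chosen with earlier results of these data known. Fits were tested on simulated data. In the annotation no gene overlaps either member.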

Additional observations from a re-analysis of the deposited data

How the results depend on the processing

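The direction of the population difference held for both genes under every alternative tried. For Slc12a5 the limma adjusted p ran from 0.0119 to 1. Its call was lost with a pseudocount of 10 (-2.19), with column-total scaling (-2.26) and with no replicate block, that is without pairing by day (-2.28, adjusted p = 1). On leaving out a day, it was lost without the E15.5 pair (-1.95) and the E16.5 pair (-2.13), and kept without the E13.5 pair (-2.76). Fewer pairs leave 1 residual degree of freedom. Otherwise the cause was not tested. Slc12a2 ran from -0.62 to -0.39 and never passed (adjusted p = 0.282 to 1). Column-total scaling moved the median of the 9349 genes with a mean of at least 10 CPM to -0.05, against 0.09 as deposited. Without pairing, the exact permutation test of the ratio over all labels gave p = 0.2, with the same mean of -1.79 on the log2 scale, and leaving out a day gave -2.37 to -1.43. The age difference and the day term kept their signs and stayed uncalled, at 0.015 to 1.46 and -0.48 to -0.46 for Slc12a5 and at -0.44 to -0.17 and 0.09 to 0.12 for Slc12a2. For the day term no library can be left out, since no residual degree of freedom would be left. Over all genes, 192 were called higher and 472 lower in IPN, against 82 and 252 with a pseudocount of 10, 13 and 183 with column-total scaling, 155 and 203 among genes with a mean of at least 10 CPM, and 1 and 53 without the E15.5 pair. With no block limma called 0 (85 higher and 591 lower at an unadjusted p under 0.05). For age, 736 were called higher and 442 lower, against 300 and 152 with a pseudocount of 10 and 182 and 60 with column-total scaling. Without any 1 library, or with no block, 0 were called with age. In those fits 1091 to 2175 genes were higher and 718 to 1850 lower at an unadjusted p under 0.05.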

Other observations

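Set against doublecortin (Dcx), the neuronal gene whose promoter drives the red reporter, Slc12a5 was lower in IPN by a similar factor on each day. From the youngest day to the oldest, Slc12a5 was at 0.367%, 0.251% and 0.178% of Dcx CPM in IPN, against 1.66%, 1.24% and 0.918% in non-IPN. Non-IPN over IPN, the Dcx-relative ratio was 4.51, 4.93 and 5.17, where CPM alone gave 2.77, 7.997 and 7.03. On the log2 scale the mean paired difference was -2.27 ± 0.10 relative to Dcx and -2.28 ± 0.86 as deposited (SD, n = 3 pairs, exact permutation p = 0.25 for each, the smallest that 3 pairs allow). For Slc12a2 relative to Dcx it was -0.48 ± 0.92 (exact permutation p = 0.75), and at E15.5 the ratio was higher in IPN (2.15%) than in non-IPN (1.85%). These ratios were chosen after the values were seen.

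The 10 GABA interneuron markers in IPN summed to 1.96%, 1.41% and 2.14% of their non-IPN level, while Slc12a5 in IPN was at 36.1%, 12.5% and 14.2% of its own. Within non-IPN, Slc12a5 was at 0.922%, 1.08% and 1.28% of the summed level of those markers, and within IPN at 16.95%, 9.58% and 8.49%. The projection neuron markers in non-IPN were at 18.5%, 10.6% and 45.4% of their IPN level. The part of either cell type in the Slc12a5 difference was not tested.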
